A study of Drosophila melanogaster with 3 samples.

Results

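The genes described here encode the soluble factors of translation and the enzymes that charge tRNAs in *Drosophila melanogaster*. They were taken by symbol alone: every protein-coding gene whose symbol begins with eIF, eEF or eRF, or joins an amino acid's three-letter code to RS, with or without the suffix -m that marks the mitochondrial enzyme. GluProRS, the fused glutamyl- and prolyl-tRNA synthetase, was included. The rule found 87 of 13945 protein-coding genes, namely 44 initiation factor genes, 10 elongation and release factor genes, 18 cytosolic and 15 mitochondrial synthetase genes. Cytosolic here means only a synthetase symbol without -m, and whether such a gene also serves the mitochondria was not examined. No -m gene was found for Gln, Gly, His, Lys or Thr. The alpha and beta subunits of the cytosolic phenylalanyl-tRNA synthetase carry a Greek prefix and fell outside the rule. The symbols decided membership and no measured value entered the rule, but the rule was chosen with earlier results of these data known.

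The measurements are chromatin immunoprecipitation sequencing (ChIP-seq) peak lists for CG13894, a protein known by its gene number, on the dm6 genome. Flies of a single transgenic line stably expressed CG13894 fused at its C-terminus to green fluorescent protein, an antibody against that tag was used for the immunoprecipitation, and whole embryos aged 2 to 24 h were sampled. All 3 biological replicates carry the same transgene, so there is 1 group and no comparison between conditions, and whole embryos mix every embryonic cell type. Each replicate has a list of 30000 peaks, a further 30000 peaks come from the 3 replicates pooled, and 7434 peaks passed the authors' threshold on the irreproducible discovery rate, a measure of how well peak ranks repeat. These 7434 form the thresholded list, which was identical to the strongest 7434 pooled peaks.

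A gene is called bound here when any of its annotated transcription start sites (TSSs) had a thresholded peak summit within 500 bp. Offsets are given in bp from the nearest TSS of the gene, negative when upstream, and ranks order the peaks of a list by the authors' signal value, with 1 the strongest. For a matched view of single replicates, the strongest 7434 peaks of each were used. No list gives read counts, so the sequencing depth is unknown, and a gene without a peak is one whose promoter did not enter these lists.

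Translation begins when eIF4 proteins bring the mRNA's cap to the small ribosomal subunit, eIF3 holds the scanning complex together, and eIF2 supplies the initiator tRNA. Elongation then cycles through eEF1, which delivers charged tRNAs, and eEF2, which moves the ribosome along, until eRF1 and eRF3 end the chain at a stop codon. Aminoacyl-tRNA synthetases join each amino acid to its tRNA, and separate nuclear genes often serve the cytosol and the mitochondria. In flies many promoters of such housekeeping genes carry the DNA replication-related element (DRE), and many genes of the translation machinery start at a pyrimidine-rich TCT initiator.

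The sequences below show what lay under 5 of the summits that the results turn on, as 101 bases centred on the summit, read 5′ to 3′ on the gene's strand from the RefSeq Release 6 (dm6) genome. Capitals mark matches to the DRE (TATCGATA), its core (ATCGAT) or the core of promoter motif 6 (GGTATTT) on either strand. The first is the strongest promoter summit of the group, at eIF4EHP on the minus strand (chr3R:24109122-24109222). The next pair carries a full DRE at or next to the summit: eEF1gamma on the plus strand (chr3R:29220082-29220182) and eIF3a on the minus strand (chr3R:4433878-4433978). ThrRS on the plus strand (chr2L:12103479-12103579) is the strongest bound synthetase and holds none of these letters. The last is eIF3f1 on the minus strand (chr3R:4714215-4714315), centred on its replicate 1 summit, because no pooled peak covers it.
eIF4EHP: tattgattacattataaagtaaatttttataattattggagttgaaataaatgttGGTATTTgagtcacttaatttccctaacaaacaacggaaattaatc
eEF1gamma: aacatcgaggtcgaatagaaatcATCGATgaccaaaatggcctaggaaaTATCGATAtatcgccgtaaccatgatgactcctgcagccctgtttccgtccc
eIF3a: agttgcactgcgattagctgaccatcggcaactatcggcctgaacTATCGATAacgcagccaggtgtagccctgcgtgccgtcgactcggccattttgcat
ThrRS: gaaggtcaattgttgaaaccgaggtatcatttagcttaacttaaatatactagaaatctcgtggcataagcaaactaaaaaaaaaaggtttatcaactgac
eIF3f1: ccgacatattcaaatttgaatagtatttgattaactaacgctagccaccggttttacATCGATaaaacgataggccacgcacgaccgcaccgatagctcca

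CG13894 was bound at 25 of the 87 genes (28.7%, 95% Wilson interval 20.3 to 39.0%), beside 22.8% of all protein-coding genes. The share differed in size between the classes. Elongation and release factors had 6 of 10 genes bound (60.0%, 31.3 to 83.2%), cytosolic synthetases 6 of 18 (33.3%, 16.3 to 56.3%), initiation factors 12 of 44 (27.3%, 16.3 to 41.8%) and mitochondrial synthetases 1 of 15 (6.67%, 1.19 to 29.8%). The intervals of the whole group, the initiation factors, the cytosolic and the mitochondrial synthetases each include the 22.8% of all coding genes. The interval of the elongation and release factors lies above it, on 10 genes. The classes were chosen with earlier results of these data known, so the intervals are a description only. No test was made between classes, and the intervals cover the counting of genes only.

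The means over the replicates gave the same order of classes. Among the strongest peaks of replicates 1, 2 and 3, 26, 29 and 29 of the 87 genes had a promoter summit, beside 23.3%, 23.3% and 25.0% of all coding genes, a mean of 32.2% ± 1.99 (SD, n = 3) against 23.9% ± 0.961. Elongation and release factors reached 5, 6 and 7 of 10 genes (60.0% ± 10), cytosolic synthetases 6, 7 and 6 of 18 (35.2% ± 3.21), and initiation factors 14, 15 and 15 of 44 (33.3% ± 1.31). Mitochondrial synthetases had 1 of 15 in every replicate, and it was ArgRS-m each time. In replicate 3 the initiation factors (34.1%) stood just above the cytosolic synthetases (33.3%), and the means of these classes differed by less than the spread of the synthetases between replicates. A promoter summit stood in the strongest peaks of all 3 replicates at 19 of the 87 genes (21.8%), beside 17.2% of all coding genes.

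**Figure D1:**
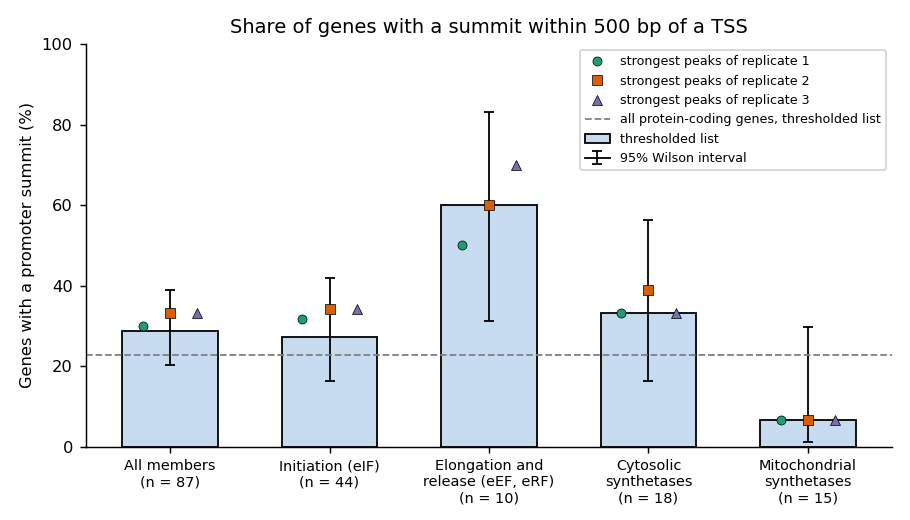
Share of genes in each class with a CG13894 summit within 500 bp of a TSS, in percent. Bars show the thresholded list with its 95% Wilson interval, symbols the strongest 7434 peaks of each replicate, and the dashed line the 22.8% of all protein-coding genes. The elongation and release factors stand at 5 to 7 of 10 genes in the replicates, and the mitochondrial synthetases at 6.67% in all of them.

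Weaker peaks added further members. At any rank of the pooled list, 36 of the 87 genes had a promoter summit (41.4%), beside 38.5% of all coding genes. In any of the 5 lists the count was 50 genes (57.5%), beside 50.3%. Sorted by their best evidence, 25 genes were in the thresholded list, 11 in the pooled list below the threshold, 14 only in a replicate list and 37 in none. Of the 15 mitochondrial synthetase genes, 12 were in no list. Of the 10 elongation and release genes, 1 was in none.

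The strongest peaks of the group lay at eIF4EHP and eIF6. eIF4EHP encodes a cap-binding protein that represses translation of selected mRNAs in the early embryo. Its summit ranked 56 in the thresholded list and 60, 55 and 55 in replicates 1, 2 and 3. The peak (chr3R:24108931-24109407) had 7.94 times the median signal of the list, with its summit 212 bp upstream of the eIF4EHP start. eIF6 keeps the large ribosomal subunit from joining too early. Its summit ranked 59, and 54, 56 and 68 in the replicates, at 7.83 times the list median and 99 bp upstream. These 2 genes held their places within 14 ranks in every replicate, far ahead of any other member, the next being eEF1gamma at rank 637.

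Among the factors of scanning and start codon choice, eIF1 and eIF5B were bound. eIF1, which monitors start codon pairing, ranked 1224 (2297, 962 and 966 in the replicates) at 341 bp upstream. eIF5B, the GTPase that joins the subunits, ranked 2904 (3795, 2579 and 3970) at 114 bp upstream. eIF1A and eIF5, their partners on the small subunit, were in no list.

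eIF2 delivers the initiator tRNA and eIF2B recharges it with GTP. This pair of complexes held 1 bound gene of 8, beside 22.8% of all coding genes. eIF2Bdelta ranked 4931 (7636, 3569 and 5285) at 82 bp upstream. eIF2alpha stood at pooled rank 11177 and eIF2beta at 15848, both below the threshold, while eIF2gamma, eIF2Balpha and eIF2Bepsilon were in no list. eIF2Bgamma had a promoter summit only in replicate 1, at rank 13459, and eIF2Bbeta only in replicate 3, at 19641. The eIF2Bbeta gene nevertheless lies beside one of the strongest peaks of the whole list: a thresholded summit of rank 18 was 683 bp upstream of its start, outside the 500 bp window. LeuRS-m was the other such gene near the limit, with a summit of rank 1019 at 801 bp upstream. Just inside the distance limit was ValRS at 461 bp. By rank, the last bound gene was HisRS at 7294, and the first gene past the threshold was eIF4H1 at pooled rank 9496.

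eIF3, the largest initiation complex, had 3 of 16 genes bound (18.8%, beside 22.8% of all coding genes), and all 3 ranked between 1312 and 1552. In the strongest peaks of each replicate the count was 5 of 16 (31.2%). eIF3h ranked 1312 (1457, 832 and 3377) with its summit 51 bp downstream of a start, inside the first coding exon. eIF3a and eIF3c, the pair of large core subunits, ranked 1334 (1413, 1478 and 1102) at 33 bp upstream and 1552 (1409, 1812 and 1836) at 56 bp upstream. eIF3b and eIF3l were listed at pooled ranks 15446 and 18774. eIF3f1, eIF3k and eIF3m appeared in replicate lists only, and eIF3d1, eIF3d2, eIF3e, eIF3f2, eIF3g1, eIF3g2, eIF3i and eIF3j in none. The subunits of this complex thus ranged from rank 1312 in the thresholded list to no peak in any list.

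eIF3f1 is the clearest case of a gene that the lists treat differently. Its summit ranked 3309, 2707 and 3891 in replicates 1, 2 and 3, at 83, 70 and 81 bp upstream, which is inside the strongest 7434 peaks of every replicate. Yet neither the pooled nor the thresholded list holds a peak at this promoter, and the nearest thresholded summit lay 25776 bp from it. Beside eIF3f1, 18 of the 19 members found among every replicate's strongest peaks were thresholded. Over all coding genes, 62 of 2392 such genes (2.59%) had no pooled peak and 2314 were thresholded. The cause was not tested.

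Several other members were in the strongest peaks of some replicates and missing from the pooled list. eIF3m ranked 4046 in replicate 1 and 4430 in replicate 3, and eIF4G2 5704 in replicate 1 and 3093 in replicate 2. eIF3k had a weaker peak, at rank 12079, in replicate 1 alone. Among the synthetases, GlnRS ranked 4950 and 3571 in replicates 1 and 2, TrpRS 6150 and 4462 in replicates 2 and 3, and MetRS 5773 in replicate 2. GluProRS ranked 1425 in replicate 3 and had no peak elsewhere. Of the 26, 29 and 29 members in the strongest peaks of replicates 1, 2 and 3, 21, 25 and 25 were listed at any rank in both other replicates. These counts concern the replicate lists and not the pooled list.

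The eIF4 group, which binds the cap and unwinds the leader, had 3 of 13 genes bound including eIF4EHP (23.1%, beside 22.8% of all coding genes). eIF4A, the RNA helicase, ranked 2379 (1911, 4371 and 2335) with its summit 172 bp downstream of an internal start in the 5′ untranslated region (UTR). eIF4E1, the main cap-binding protein, ranked 5114 (4458, 7600 and 5754) with the summit 1 bp from a start. eIF4H1 and eIF4E3 stood at pooled ranks 9496 and 26692, eIF4E4 at 14179 in replicate 1 only, and eIF4G2 as given above. eIF4B, eIF4E5, eIF4E6, eIF4E7, eIF4G1 and eIF4H2 were in no list. Of these, eIF4B lies in a stretch of arm 3L without thresholded peaks, 4579094 bp from the nearest thresholded summit. eIF4G1, also in no list, encodes the general scaffold of this group. The bound share of the group was close to that of all coding genes, so a single member without a peak is no pattern.

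The remaining initiation factors were eIF6 and a pair of proteins that can bring tRNA to the ribosome outside the usual eIF2 route. eIF2A ranked 1501 (1745, 2586 and 889) at 66 bp upstream. eIF2D ranked 5542 (11004, 6059 and 3654) at 59 bp upstream, and in replicate 1 it fell outside the strongest 7434 peaks.

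In elongation, 4 of 8 genes were bound, with ranks from 637 to 1553. eEF1gamma, a subunit of the complex that recharges eEF1alpha, ranked 637 (704, 650 and 634) at 40 bp upstream. eEF2, the translocase, ranked 1195 (1324, 1538 and 954) at 55 bp downstream. eEF5, the fly counterpart of eIF5A, which helps the ribosome past difficult peptide bonds, ranked 1366 (1574, 1720 and 1115) at 28 bp upstream. eEF1alpha1, which carries charged tRNA to the ribosome, ranked 1553 (1185, 1529 and 1112) at 23 bp downstream, with 3 thresholded summits around its 4 starts. These 4 genes stayed in the first 1720 ranks of every replicate.

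The other elongation genes were not in the thresholded list. eEFSec, the selenocysteine elongation factor, stood at pooled rank 21813. eEF1delta had ranks of 19971, 9871 and 7339 in the replicates and no pooled peak, eEF1alpha2 a rank of 23009 in replicate 3 only, and eEF1beta no peak. Of the exchange complex made by the beta, delta and gamma subunits, eEF1gamma alone was bound.

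Both release factor genes were bound, beside 22.8% of all coding genes. eRF1, which reads the stop codon, ranked 2094 at 114 bp upstream, but its replicates lay far apart at 19793, 3535 and 2445. eRF3, its GTPase partner, ranked 2207 (1744, 4065 and 2432) at 312 bp upstream, with 2 thresholded summits. The replicate 1 summit of eRF1 stood at another annotated start, 90 bp downstream of it, whereas replicates 2 and 3 had summits 92 and 134 bp upstream of the outer start. The 3 positions span 806 bp.

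**Figure D2:**
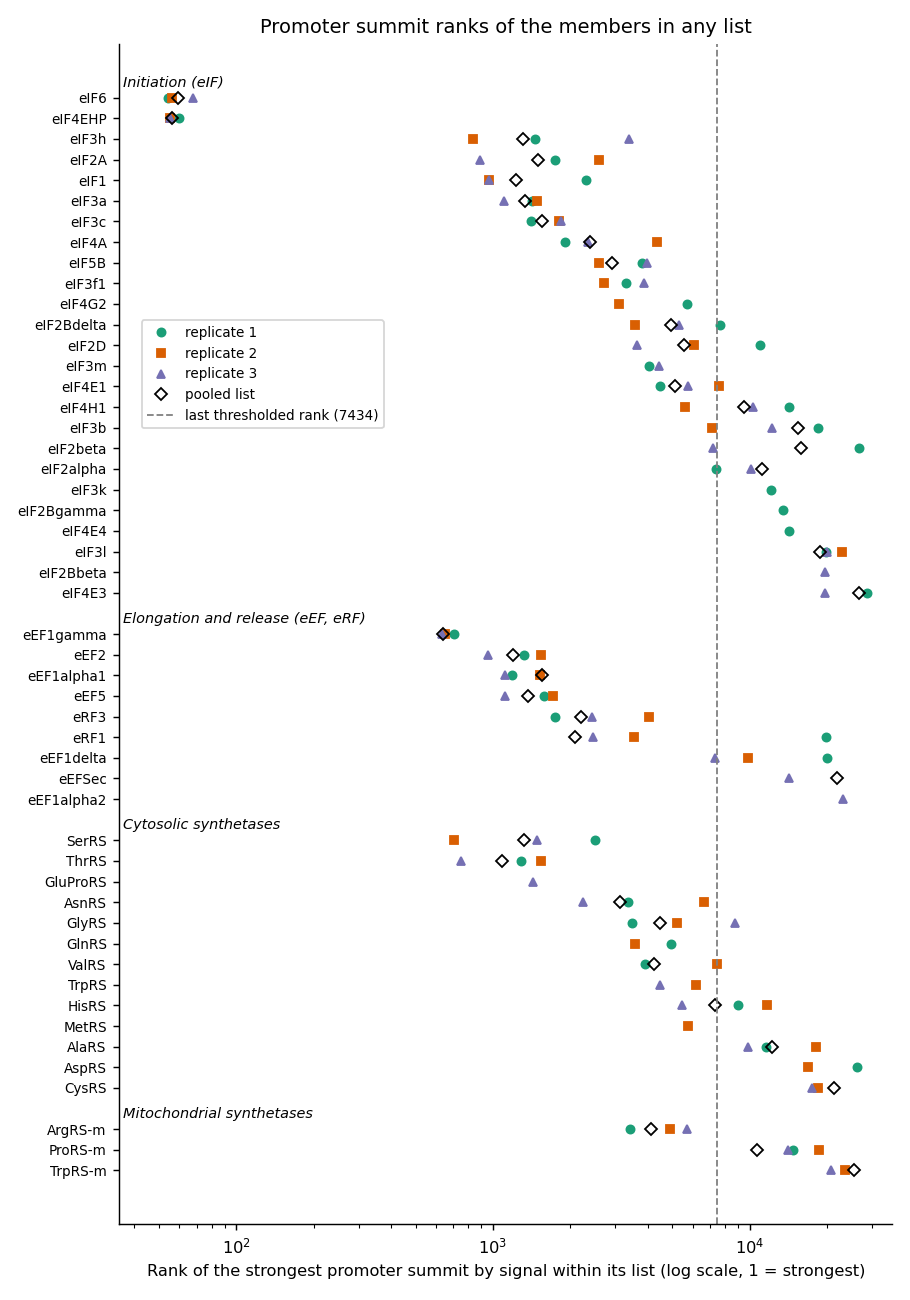
Rank of the strongest promoter summit of the 50 members found in any list, on a log scale with 1 the strongest, by class. Filled symbols are the 3 replicate lists, diamonds the pooled list, and the dashed line the last thresholded rank, 7434. eIF4EHP and eIF6 stand apart at ranks 54 to 68, and members without a diamond have no pooled peak.

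The bound cytosolic synthetases, a class set by symbol alone, fell into a stronger pair and a weaker group. For ThrRS, GlyRS and HisRS among them the rule found no -m counterpart. ThrRS ranked 1088 (1284, 1544 and 747) at 222 bp upstream. SerRS ranked 1316 (2491, 702 and 1480) at 28 bp downstream. AsnRS ranked 3116 (3360, 6627 and 2250) at 99 bp upstream. ValRS ranked 4250 at 461 bp upstream, with ranks of 3915 and 7476 in replicates 1 and 2 and no peak in replicate 3. GlyRS ranked 4476 (3478, 5206 and 8729) at 318 bp upstream, and HisRS 7294 (9009, 11703 and 5461) at 18 bp downstream. ThrRS, SerRS and AsnRS were in the strongest peaks of every replicate, and the other three were not. A stricter count kept only bound genes that also stood in the strongest peaks of 2 given replicates. It left 3 of 18 genes (16.7%) with replicates 2 and 3 and with replicates 1 and 3, beside 17.5% and 17.8% of all coding genes. With replicates 1 and 2 it left 4 (22.2%), beside 17.6%. This rule can only lower the count.

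The other cytosolic enzymes were not in the thresholded list. AlaRS and CysRS stood at pooled ranks 12270 and 21313. AspRS, at 26244 and 16842 in replicates 1 and 2, joined GlnRS, GluProRS, MetRS and TrpRS in the replicate lists only. ArgRS, IleRS, LeuRS, LysRS and TyrRS were in no list.

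The single bound mitochondrial enzyme, ArgRS-m, ranked 4139 (3428, 4888 and 5703) at 316 bp upstream. ProRS-m and TrpRS-m stood at pooled ranks 10679 and 25589. No list had a promoter peak for AlaRS-m, AsnRS-m, AspRS-m, CysRS-m, GluRS-m, IleRS-m, LeuRS-m, MetRS-m, PheRS-m, SerRS-m, TyrRS-m or ValRS-m. For 12 amino acids the rule took a cytosolic and a mitochondrial gene with the same symbol apart from -m. In 3 of these pairs only the cytosolic gene was bound (Asn, Ser and Val) and in 1 only the mitochondrial gene (Arg). In none were both bound, and in 8 neither was, beside 22.8% of single genes bound over all coding genes. The fused GluProRS was not paired with GluRS-m and ProRS-m in this count, and none of them was bound.

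The median rank of the bound members was 1553, beside 2817 over all bound coding genes. Of the 25, 16 (64.0%) ranked within the first 2500, beside 44.8% of all bound genes, and 3 (12.0%) within the first 1000, beside 20.1%. Neither share repeated in every replicate. Within the first 1000 were 11.5%, 20.7% and 24.1% of the members in replicates 1, 2 and 3, beside 19.4%, 19.4% and 19.9% of all coding genes with a promoter summit. Within the first 2500 were 57.7%, 41.4% and 58.6%, beside 43.9%, 44.6% and 44.2%. The class medians were 1526 for initiation, 1460 for elongation and release, and 3683 for cytosolic synthetases, and their order held in replicates 1 and 2 but not in replicate 3. Initiation stood at 2104, 2586 and 3377, cytosolic synthetases at 3419, 5206 and 1865, and elongation and release at 1324, 1629 and 1115, the lowest of these classes each time. In the replicates' own strongest peaks the median was 2104, 2707 and 2335 (2382 ± 304, SD, n = 3), beside 2895 ± 28.1 for all coding genes, so the gap was narrower there.

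The repeatability of a single gene's rank was moderate. Of the 25 bound members, 24 were listed in all 3 replicates, and the highest rank number was a median of 2.10 times the lowest. For 11 of these 24 the ratio was under 2. It was 1.09 at eIF4EHP, 1.11 at eEF1gamma and 8.10 at eRF1. As a description over these genes, Spearman's correlation of ranks was 0.77 between replicates 1 and 2 (n = 25), 0.82 between 1 and 3 (n = 24) and 0.77 between 2 and 3 (n = 24). The genes were required to pass a threshold that itself rewards repeated ranks.

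The summits sat close to the start sites and mostly upstream. The median offset of the 25 was -66 bp (quartiles -212 and -1), beside -95 bp (-184 and -10) over all bound coding genes. Of the 25, 19 lay upstream (76.0%, beside 77.7%) and 15 within 100 bp of a start (60.0%, beside 45.3%). The median was -62.5 bp for initiation factors, -34 bp for elongation and release factors and -160.5 bp for cytosolic synthetases. In the same order, replicate 1 gave -49, -25 and -159 bp, replicate 2 -35, -75.5 and -120 bp, and replicate 3 -59, -67 and -75.5 bp. Among these classes the cytosolic synthetases lay farthest upstream each time, by a distance that varied, and the order of the others changed. The single bound mitochondrial gene lay farther still, at -316 bp, and at -307, -240 and -230 bp in replicates 1, 2 and 3. Over the replicates the median was -69.5 ± 9.5 bp for the whole group and -95.3 ± 2.52 bp for all coding genes. The summit positions of the 3 replicates spanned a median of 56.5 bp, at most 50 bp in 10 of 24 genes and over 100 bp in 3. Those were eEF1alpha1 (1101 bp), eRF1 (806 bp) and eIF4A (141 bp). At eEF1alpha1 and eRF1 the strongest summits of the replicates lay at different annotated starts, and in the other 22 genes at the same start.

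**Figure D3:**
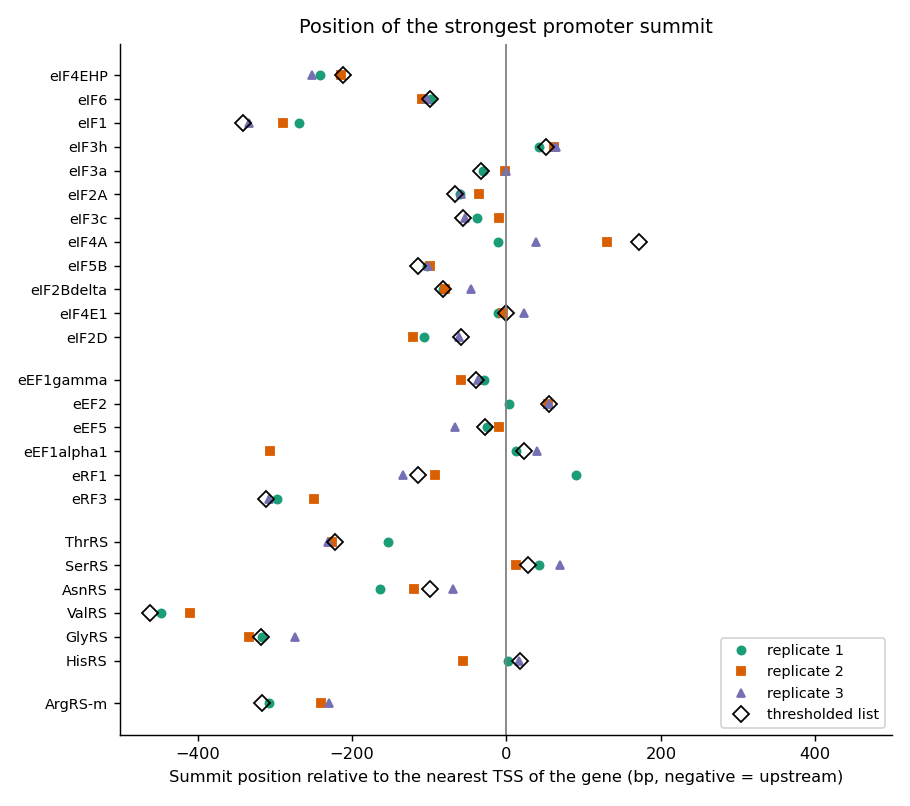
Position of the strongest promoter summit of each bound member relative to the nearest TSS of the gene, in bp, with negative values upstream. Diamonds are the thresholded list and filled symbols the 3 replicates. Most summits lie between -120 and +60 bp, and the far upstream ones at eIF1, eRF3, ValRS, GlyRS and ArgRS-m repeat in each replicate that lists them. Offsets are from the nearest TSS of each summit, which at eRF1 and eEF1alpha1 is not the same one in all replicates.

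By annotation, 13 of the 25 summits were intergenic, 9 in a 5′ UTR, and 1 each in a coding exon (eIF3h), an intron (eRF3, in the neighbouring SC35) and a noncoding exon (eIF6, in the antisense RNA asRNA:CR45928). Within the gene body and more than 500 bp from any start of the gene, 3 members (3.45%) had thresholded summits, beside 10.8% of all coding genes: eIF5B with 5 and eIF4EHP with 4, whose genes are 32320 and 45884 bp long, and SerRS-m with 1.

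Many of these promoters serve a pair of genes, which bears on which gene a summit belongs to. Of the 87 members, 44 (50.6%) had a TSS of another gene on the opposite strand within 500 bp, beside 30.6% of all coding genes, and 14 of the 18 cytosolic synthetases did. Members with such a neighbour were bound in 15 of 44 cases (34.1%) and members without one in 10 of 43 (23.3%). All coding genes stood at 33.3% and 18.1%. The number of annotated starts moved with binding too, and a gene with more starts has more windows in which a summit counts: 16 of 31 members with at least 2 TSSs were bound (51.6%) and 9 of 56 with 1 (16.1%), beside 41.5% and 16.0% of all coding genes. Of the 10 elongation and release genes, 7 have at least 2 TSSs, and 6 of these 7 were bound (85.7%, beside 41.5%). Of the 3 with 1 TSS, 0 were bound, beside 16.0%. With only 1 TSS counted for each gene, 6 of the 10 elongation and release genes were still bound, beside 20.5% of all coding genes.

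In the 15 bound shared promoters, the summit was nearer to the member's start in 8 and nearer to the neighbour's in 7. The neighbour was nearer at eIF1 (RpL28, a ribosomal protein gene, 40 bp from the summit), eIF2Bdelta (roh, 8 bp) and eIF4EHP (CG18428, 164 bp). It was also nearer at eIF6 (asRNA:CR45928, 70 bp), eRF3 (SC35, a splicing factor gene, 102 bp), GlyRS (Plp, a centrosome gene, 100 bp) and ArgRS-m (CG17816, 4 bp). These distances are for the strongest summit, and 3 of the 7 genes had a second thresholded summit nearer to their own start. That summit lay 141 bp upstream at eIF1 (rank 3234), 112 bp upstream at eRF3 (rank 5046) and 40 bp upstream at ArgRS-m (rank 7126). Counting every thresholded summit, 11 of the 15 shared promoters had one nearer to the member, and at 4 all were nearer to the neighbour. The member was nearer at eIF3a (CG1074), eIF3h (senju), eIF5B (CG46463 and armi), eEF1alpha1 (ERp60), eRF1 (Rbbp5), AsnRS (DCTN6-p27), SerRS (CG17260) and ThrRS (Patsas). HisRS shares its strand and its 5′ UTR with Bx, so that summit cannot be given to either gene. Which gene of a pair the peaks relate to was not tested.

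Counted in 200 bp around the summits, on both strands, the DRE occurred at 7 of the 25 summits (28.0%), beside 7.09% of 3005 thresholded summits at coding promoters. Its core, which every full DRE contains, occurred at 10 (40.0%, beside 16.7%). The 7 were eIF3a (2 bp from the summit), eEF1gamma (3 bp), eIF2A (19 bp), eIF1 (49 bp), eIF6 (91 bp), eRF1 (93 bp) and GlyRS (95 bp). The median distance was 49 bp, beside 44 bp for the 213 DRE summits of all coding promoters. As printed above, the elements of eEF1gamma and eIF3a lie at the middle of the window.

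Within a fixed promoter window, the DRE was about as frequent in members that were not bound. In the promoter window from 250 bp before to 50 bp after the start, 20 of the 87 members held a DRE (23.0%), beside 9.36% of all coding genes. Bound members held it in 6 of 25 cases (24.0%) and members not bound in 14 of 62 (22.6%). For genes with several starts the window can miss the start nearest to the summit, as it does at eIF2A and eIF5B. This window does not hold the DRE found at the summits of eIF1, eIF2A and GlyRS. The share of bound members therefore leaves out part of the DREs near their summits. Over all bound coding genes it was 13.2%. Among the classes the share was 27.3% for initiation factors, 30.0% for elongation and release factors, 22.2% for cytosolic and 6.67% for mitochondrial synthetases.

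Each of the other promoter motifs occurred at 3 or fewer of the members' 25 summits, and their shares differed in direction from those of all coding promoters. GA repeats (GAGAG) occurred at 3 of 25 (12.0%, beside 28.7%), the E-box CAGCTG at 1, HisRS (4.0%, beside 12.4%), and the motif 6 core at 3 (12.0%, beside 6.79%), namely eIF4EHP, eIF5B and SerRS. The motif 1 core (GTCACACT) occurred at 1, ValRS (4.0%, beside 4.33%), and the motif 7 core (CAGCGCT) at none (beside 2.46%). In promoters, the motif 1 core was found in 8 of 62 members not bound and in 0 of 25 bound. Over all genes it was found in 8.76% of bound coding genes and in 6.62% of all coding genes. A match describes the letters in these windows and is no measured site.

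**Figure D4:**
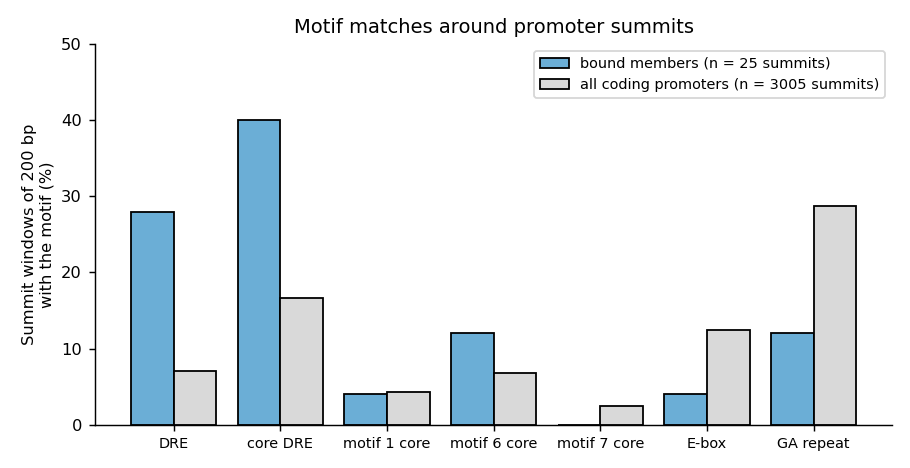
Share of 200 bp summit windows that hold each motif on either strand, in percent, for the strongest promoter summits of the 25 bound members and for 3005 thresholded summits at coding promoters. The DRE stands at 28.0% against 7.09% and the GA repeat at 12.0% against 28.7%.

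The TCT initiator, searched as TCTTT or CCTTT on the gene's strand with its C within 2 bp of an annotated start, was found at 2 of the 87 genes (2.3%, beside 1.32%): TyrRS and eIF3m, neither bound. Annotated starts can lie a few bases off, and only 18 of 88 ribosomal protein genes had the match at this tolerance. With 10 bp, chosen after the values were seen, 72 of those 88 (81.8%) and 16 of the 87 members (18.4%, beside 6.35%) had it. These were 5 of 10 elongation and release factors, 9 of 44 initiation factors, 2 of 18 cytosolic and 0 of 15 mitochondrial synthetases. Members with the wider match were bound in 6 of 16 cases (37.5%) and those without in 19 of 71 (26.8%), beside 35.9% and 21.9% of all coding genes. A pair of bound examples is printed on the plus strand, with the initiator in capitals: eIF4A (chr2L:5981752-5981786), whose summit lies at a start farther downstream, and ThrRS (chr2L:12103738-12103772).
eIF4A start: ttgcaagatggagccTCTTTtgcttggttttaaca
ThrRS start: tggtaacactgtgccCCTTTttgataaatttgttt

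Other genes of translation that the symbol rule does not take were looked up from a list of 35, of which 29 matched the annotation. Of these, 12 were bound (41.4%, 25.5 to 59.3%), beside 22.8% of all coding genes. This list, too, was drawn up with earlier results known. The strongest was Thor, the fly 4E-BP that sequesters eIF4E, at rank 947 (714, 1255 and 1258 in the replicates) and 36 bp downstream. NAT1, an eIF4G relative of cap-independent translation, ranked 994 (1025, 736 and 1294) at 117 bp upstream. Tctp, the translationally controlled tumour protein, ranked 2087 at 130 bp upstream. The ribosome rescue factors pelo and HBS1, relatives of eRF1 and eRF3, ranked 2741 and 3035. alpha-PheRS had ranks of 8949 and 6972 in replicates 1 and 2 only, and beta-PheRS was in no list. pAbp, the poly(A)-binding protein, ranked 2102, 9373 and 5622 in the replicates and 20934 in the pooled list.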

How the data were processed

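Whole embryos of 1 transgenic line were profiled in 3 biological replicates of 1 group. Per the labels' file notes, the authors called peaks per replicate and on the pooled alignments, against a control alignment, on dm6, and derived the thresholded list from these. Not given in the sources used here were aligner, caller, settings and the threshold's value. The authors' deposited signal value per peak is on a scale of its own in each list (maximum 36460 in the pooled list and 9476 to 15130 in the replicates), so it was used for ranks and ratios within a list and never compared in size between lists. The deposited −log10 q-value is capped (4.10 in the thresholded list) and was not used for results. The deposited summit offset placed the summit. In 5 thresholded peaks it fell past the peak's end and was set to the last base. The labels' age field is too large for an embryo, and the source description gave the age instead.

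Genes and TSSs came from Ensembl release 115, without transposons and pseudogenes, on chromosome arms X, 2L, 2R, 3L, 3R and 4. The genome was RefSeq's Release 6 assembly, on which 99.8% of 30593 annotated start codons read ATG. Where a gene had several promoter summits, the strongest was used. Counts were made with Python 3.11.15, numpy 2.4.6, pandas 2.3.3 and scipy 1.17.1, and figures with matplotlib 3.10.9. Counting was checked on planted summits. Shares carry 95% Wilson intervals, or the mean and SD over the strongest 7434 peaks of each replicate. No test over the genes was made, because the members, the classes and the companion list were chosen with earlier results of these data known. Every bound member is named with its rank and offset, and every other member with its list. Depth is unknown, since no list gives read counts. Some sequences under summits are not printed. Alternatives were distance, strictness, single lists, bound genes also in the strongest peaks of 2 given replicates, TSS choice, peak overlap and shared promoters.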

Additional observations from a re-analysis of the deposited data

How the results depend on the processing

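Counts are members bound unless stated. Leaving out genes with a shared promoter gave 10 of 43 members, 5 of 25 initiation factors, 3 of 6 elongation and release factors, 2 of 4 cytosolic and 0 of 8 mitochondrial synthetases (all coding genes 18.1%), a median offset of -34 bp and a median rank of 1966. A limit of 200 bp gave 3 cytosolic synthetases (16.7%, below the 18.1% of all coding genes), an offset of -40 bp and a rank of 2094. A limit of 1000 bp gave 2 mitochondrial synthetases (13.3%, all coding genes 26.5%) and -82 bp. The stronger 50% of peaks gave 3 cytosolic (16.7%) and 0 mitochondrial synthetases (all coding genes 14.2%). Peaks overlapping the TSS gave 3 cytosolic synthetases (16.7%, all coding genes 15.8%) and -40 bp. The pooled list gave 3 mitochondrial synthetases (of 15, all coding genes 38.5%) and a rank of 3628, and the replicates ranks of 2104, 2707 and 2335 and, in replicate 2, an offset of -80 bp. Requiring each bound gene to stand also in the strongest peaks of 2 given replicates can only lower the counts. It gave 19 to 21 members, 9 to 11 initiation factors, 5 to 6 elongation and release factors, 3 to 4 cytosolic and 1 mitochondrial synthetase. All coding genes stood at 17.5 to 17.8%. The offsets were -66 to -56 bp and the ranks 1366 to 1501. The TCT count rose from 2 to 16 at 10 bp, an alternative chosen after seeing the data. No median turned its sign. The causes were not tested. No paired analysis was possible because there is 1 group. The unknown depth, lists that end at 30000 peaks and small classes of 10 to 18 genes limit all of these counts, and an absent peak is no measure of absent binding.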

Other observations

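In mammals, part of the cytosolic synthetases and some scaffold proteins form a multi-synthetase complex, and the fly genes for those enzymes are ArgRS, AspRS, GlnRS, GluProRS, IleRS, LeuRS, LysRS and MetRS. This grouping was made after the values were seen and has no test. None of the 8 genes was bound, and none had a pooled promoter peak, while 6 of the other 10 cytosolic synthetase genes were bound and 8 had a pooled peak. Over all coding genes these shares are 22.8% and 38.5%. In the strongest peaks of replicates 1, 2 and 3, 1, 2 and 1 of the 8 had a promoter summit, against 5, 5 and 5 of the other 10. All 8 have a neighbour on the opposite strand within 500 bp, as do 6 of the other 10. Annotated starts numbered at least 2 in 3 of the 8 and in 4 of the other 10. AIMP2 and AIMP3, which encode scaffold proteins of that complex, were in no list. The symbol Aimp1 was searched too but did not match the annotation, so that gene was not examined.

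Duplicated factor genes were looked at in the same way, again after the values were seen. Of 7 first members of a duplicated set (eIF4E1, eEF1alpha1, eIF3d1, eIF3f1, eIF3g1, eIF4G1 and eIF4H1), 2 were bound, eIF4E1 and eEF1alpha1. Of their 11 paralogues (eIF4E3, eIF4E4, eIF4E5, eIF4E6, eIF4E7, eEF1alpha2, eIF3d2, eIF3f2, eIF3g2, eIF4G2 and eIF4H2), 0 were bound, beside 22.8% of all coding genes. eIF4G2 was in the strongest peaks of replicates 1 and 2. eIF4EHP, a more distant relative of eIF4E1 bound at rank 56, was not counted among them, and with it the count is 1 of 12. Related copies can share reads, and how reads that map to more than 1 place were handled is not given in the sources used here.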
